A study of Arabidopsis thaliana with 9 samples.

Results

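The transcripts described here were those whose mean log2 signal was at least 1 higher by 2 d of treatment with an auxin and a cytokinin and then held that level to 8 d. Whole wild-type Arabidopsis thaliana seedlings aged 4 days on Murashige and Skoog medium were the starting point (0 d). Seedlings of the same start were then moved to this medium with 2.26 µM 2,4-D, a synthetic auxin, and 0.46 µM kinetin, a cytokinin, and sampled at 2 d and 8 d. Each of the 3 time points had 3 Affymetrix arrays, which the labels do not trace to separate cultures. The 0 d seedlings had no hormone, and later seedlings without hormone were not analysed here, so treatment and age cannot be told apart.

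Members were chosen by their own signals. L0, L2 and L8 were the mean log2 signals of the 3 arrays at 0 d, 2 d and 8 d. A member had exactly 1 nuclear gene, a highest mean of at least 7 (log2), L2 at least 1 above L0, and L8 within 0.5 of L2. Of 5455 probe sets with 1 nuclear gene, 149 met these thresholds, and 7 of them (GH3.3, WES1, LBD16, PRL, AUR2, EXPB3 and YAO) were left out by name. The 142 members measured 141 genes, out of 10343 probe sets in the table. Every contrast between time points was thus used to choose the members, and their changes are given below as a description, with no test.

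Auxin and cytokinin together bring differentiated plant cells back into division and are used to induce callus, an unorganised mass of dividing cells. Auxin acts by removing repressors from target genes, and cytokinin by a phosphorelay that ends in nuclear response regulators. Cells that re-enter division need new DNA, new histones and remodelled chromatin, then a spindle, a checkpoint on chromosome attachment and the phragmoplast, the microtubule array that builds the new wall between daughter cells. Only 29 of the 141 member genes had a name beyond their locus number in the reference used, and roles are given for 28 of these. One further gene, AT3G15460, is described by the list it was on.

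The table as deposited held mostly probe sets that differed between the time points. For 10323 of its 10343 probe sets, a one-way F test over the 3 time points gave p-values below 0.05 before adjustment, and the array medians ran from 445 at 0 d to 546 at 8 d. The median log2 change over all probe sets was 0.19 at 2 d against 0 d, 0.40 at 8 d against 0 d and 0.26 at 8 d against 2 d. Of 46 cell type markers listed, 13 were measured. The summed signal of 9 of 10 green mesophyll markers was 105967 to 121154 at 0 d, 93127 to 114055 at 2 d and 39749 to 53955 at 8 d. That of 2 of 7 stomatal lineage markers was 631 to 766, 491 to 642 and 80.0 to 123. Most of this sum was STOMAGEN, with means of 571, 402 and 34.4 at 0 d, 2 d and 8 d. The other, FMA, had means of 122, 165 and 62.3, so it was higher at 2 d than at 0 d. The root hair marker EXPA7, the single one measured of 4, had 410 to 606 at 0 d, 61.6 to 131 at 2 d and 62.7 to 112 at 8 d, and LBD16, 1 of 3 lateral root founder markers, had 121 to 173, 291 to 534 and 331 to 671. No listed marker of endodermis, xylem, phloem, stem cell niches or seed storage was measured, so the labelled whole seedling was checked on these few alone. In such bulk samples fewer cells of a type and less RNA per cell cannot be told apart, and the part of tissue composition in the values below was not tested.

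The members started dim, as did early risers as a whole. Their median log2 signal was 7.17 at 0 d, 8.61 at 2 d and 8.78 at 8 d, and the same medians over all 5455 probe sets with 1 nuclear gene were 8.61, 8.82 and 8.94. At 0 d, 19 of the 142 lay above the median signal of those probe sets, at 2 d 64 did and at 8 d 63. At 0 d 42 members (29.6%) had a mean signal under 100, where folds are imprecise, against 8.03% of all probe sets with 1 nuclear gene. Probe sets that rose as much by 2 d and were at least 0.5 higher at 8 d had a median of 7.18 at 0 d, with 27.9% under 100. Those at least 0.5 lower at 8 d had 7.69, with 25.2% under 100, and all early risers together had 7.24. The 7 probe sets left out by name were less dim at 0 d, with a median of 8.40 and 0 under 100. The highest member means were 9361 at 2 d and 12630 at 8 d, and 18 members had a mean over 1000 at 2 d.

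**Figure D1:**
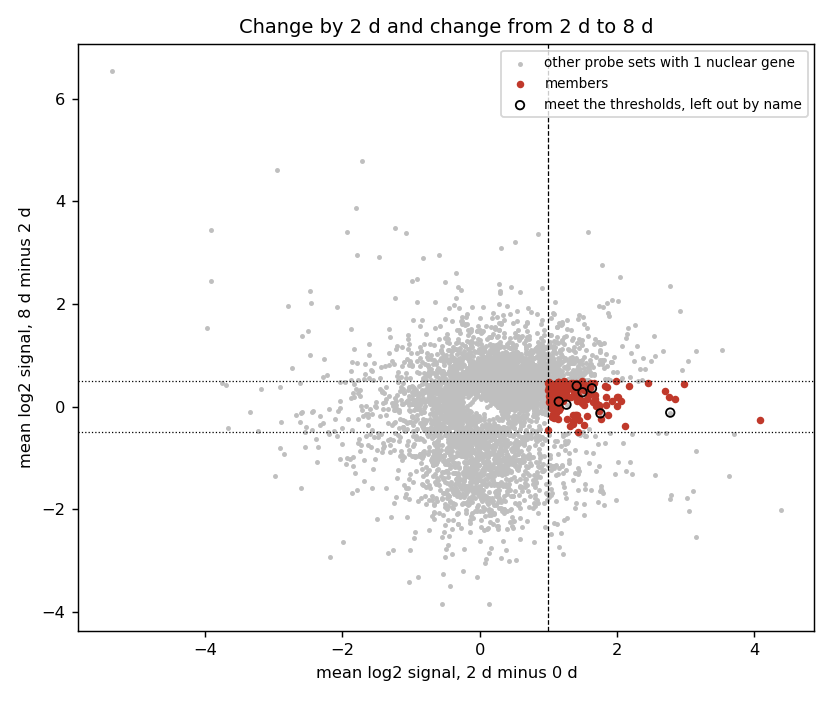
Each point is a probe set with 1 nuclear gene, with the difference in mean log2 signal between 2 d and 0 d on the x axis and between 8 d and 2 d on the y axis. Members (red) fill the strip right of 1 and between -0.5 and 0.5, black circles are the 7 left out by name, and most of the members lie above 0 on the y axis (112 of 142).

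The change by 2 d was modest for most members. The median difference between 2 d and 0 d was 1.31 (log2), with an interquartile range of 1.12 to 1.54. It was under 1.5 in 101 members, from 1.5 up to 2 in 31 and at least 2 in 10, with a maximum of 4.09. Between 8 d and 0 d the median was 1.54, with a range of 0.54 to 3.84. All 142 had every 2 d array and every 8 d array above every 0 d array. Such an order held for 43.4% of all 10343 probe sets at 2 d and for 55.2% at 8 d. At an adjusted p under 0.05 with a log2 change of at least 1 (limma, fitted over all probe sets), 142 of 142 members were called higher at 2 d than at 0 d, as the rule all but fixes, beside 9.75% of all probe sets called higher and 5.2% called lower. At 8 d against 0 d 134 of 142 were called higher, beside 25.4% of all called higher and 18.1% called lower. With no fold limit all 142 had an adjusted p under 0.05 at 8 d, beside 90.1% of all probe sets.

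Within the permitted band, the 8 d mean was above the 2 d mean in 112 of 142 members (78.9%), and below it in 30. It was above in 74.1% of all probe sets that rose by at least 1 by 2 d, and in 65.0% of all with 1 nuclear gene. The median difference was 0.22 (log2). The median log2 change over all probe sets between the same time points was 0.26. In 93 of 142 members the 2 d and 8 d arrays overlapped, as they did in 1192 of all 5455 probe sets with 1 nuclear gene; the band of the rule favours such overlap. By limma 0 of 142 were called between 8 d and 2 d, as the rule requires, beside 22.1% of all probe sets. Of all probe sets, 7.36% were called higher and 14.7% lower. An unadjusted limma p under 0.05 was found in 46 members, and the share of all probe sets at that limit was not counted. At an adjusted p under 0.05 with no fold limit, 36 members were higher and 4 lower at 8 d, beside 76.5% of all probe sets in either direction.

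**Figure D2:**
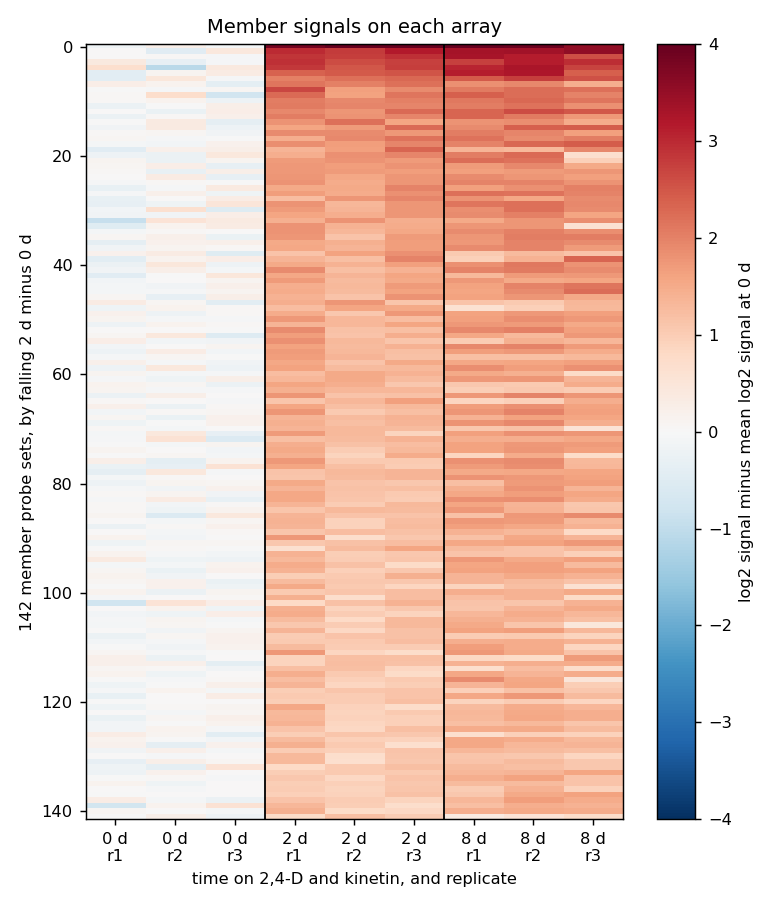
Rows are the 142 member probe sets, ordered by falling difference between 2 d and 0 d, and columns are the 9 arrays by time and replicate (r1 to r3); colour is log2 signal minus the mean log2 signal at 0 d. The 2 d and 8 d columns are red in every row, with paler rows scattered in replicate 3 at 8 d.

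The 6 named members of the first role group belong to DNA replication, repair and chromatin. In all 6 the mean was highest at 8 d, as it was in 78.9% of all members. POLD3, a subunit of DNA polymerase delta, had signals of 100.2, 121 and 92.8 on the 0 d arrays, 331, 291 and 371 at 2 d, and 478, 473 and 409 at 8 d. The 3 time points did not overlap. The log2 difference was 1.66 (SE 0.13, n = 3 per time point) at 2 d and 2.12 (SE 0.13) at 8 d, both against 0 d. POLA3, of the polymerase alpha-primase complex that starts new DNA strands, had 220.2, 235 and 263 at 0 d, 629, 429.5 and 462 at 2 d, and 549.8, 584 and 514 at 8 d. Here the 2 d and 8 d arrays overlapped, and replicate 1 was the highest of the 2 d arrays. The differences against 0 d were 1.06 (SE 0.15) at 2 d and 1.2 (SE 0.15) at 8 d.

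HTB2, a histone H2B gene with close relatives whose transcripts its probes may also bind, had 302, 388 and 315 at 0 d, 1239, 767 and 879.7 at 2 d, and 1330.5, 1422 and 1247 at 8 d. Its 8 d minus 2 d difference of 0.499 (log2) lay just inside the limit of 0.5. CHR24 and CHR23 encode chromatin remodelling ATPases. CHR24 had 53.4, 77.4 and 78.8 at 0 d, 196, 184 and 221 at 2 d, and 229, 274 and 256 at 8 d, with no overlap between time points. CHR23 had 67.5, 94.2 and 56.2 at 0 d, 229.7, 176 and 132 at 2 d, and 219, 251 and 242 at 8 d, so its 2 d arrays spread widely. APTX, related to the human DNA repair enzyme aprataxin, was the dimmest member at 2 d, with a mean of 115 ± 4.91 (SD, n = 3), and had 57.2 ± 6.03 at 0 d and 133 ± 7.32 at 8 d.

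Mitosis and cytokinesis had another 6 named members. Haspin, a kinase that phosphorylates a histone during mitosis, had 73.8, 119 and 75.4 at 0 d, 247, 229 and 273 at 2 d, and 310.5, 374 and 303 at 8 d. None of its time points overlapped, and the differences against 0 d were 1.51 (SE 0.18) at 2 d and 1.91 (SE 0.18) at 8 d. BUB3.1, of the spindle assembly checkpoint, had 282, 222 and 303 at 0 d, 701, 518 and 567 at 2 d, and 819.6, 835 and 809 at 8 d. Its differences were 1.15 (SE 0.14) at 2 d and 1.62 (SE 0.14) at 8 d.

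KINESIN-12B (PAKRP1L), a motor of the phragmoplast, had 56.6, 64.5 and 43.5 at 0 d, 179, 174 and 189.6 at 2 d, and 178, 204 and 154 at 8 d. The later time points overlapped fully and differed by -0.02 (log2), one of the flattest profiles among the named members. 3xHMG-box1, a protein that associates with mitotic chromosomes, had 65.8, 93.1 and 63.9 at 0 d, 218, 239.5 and 354 at 2 d, and 269.7, 386 and 388 at 8 d. TTN9 (TITAN9), needed for embryo and endosperm development, had means of 75.4 ± 29.4, 176 ± 10.4 and 199.6 ± 7.51 at 0 d, 2 d and 8 d (SD, n = 3 each). TRM28, of a family with a TON1 recruiting motif, several of whose proteins act at cortical microtubules, had 148 ± 7.08, 395 ± 71.3 and 348 ± 13.8, with its mean highest at 2 d. Of 4 measured genes of that family, TRM28 included, 2 were called higher at 2 d and 3 at 8 d, and none lower. Over all probe sets 9.75% were called higher at 2 d and 25.4% at 8 d, both against 0 d.

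A list of 24 cell cycle and replication genes was chosen with earlier results of these data known, so it is no independent check. It had 5 measured genes, none of them a member. Of these, 3 were called higher at 2 d and 5 at 8 d against 0 d, and none lower, beside 9.75% and 25.4% of all probe sets called higher. Their median log2 differences were 1.15 and 1.25, against 0.21 and 0.47 over all probe sets with 1 nuclear gene. PRL and AUR2, which are among these 5, met the thresholds and were left out by name. Families added after the members were known showed relatives on either side of the rule. Of 4 CHR genes measured, 2 were the members above, chosen for their rise. Of the other two, CHR17 was at 1.36 and 2.06 at 2 d and 8 d against 0 d and was called higher at both, and CHR18 was at 0.43 and 0.996 and was called at neither. Of the core histone genes measured besides HTB2, HTR12, the centromeric histone variant, was at 1.48 and 2.08 and was called higher at both times. HTB1 was at 0.89 and 0.95 and HTB4 at 0.20 and 0.52, neither called at either time.

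RNA processing and export had 4 named members, whose rises by 2 d ran from 1.01 to 1.15 (log2), with the lowest median of the role groups (1.09). TEX1 (THO3) and THO1 (HPR1) are subunits of the THO complex, which couples transcription to mRNA export. TEX1 had 258, 226 and 215 at 0 d, 607, 461 and 490.0 at 2 d, and 515, 512 and 449.8 at 8 d. THO1 had 245, 233 and 242 at 0 d, 481, 448 and 523 at 2 d, and 486, 624 and 455 at 8 d. In both genes the 2 d and 8 d arrays overlapped and the 0 d arrays stood apart. The other measured subunits, THO5 and THO7, were at 0.46 and 0.29 at 2 d and were not called, and at 1.02 (SE 0.091) and 1.02 (SE 0.17) at 8 d, where limma called both higher (adjusted p = 3.24e-06 for THO5 and 0.000266 for THO7). FY, a factor of mRNA 3' end formation known from the control of flowering, had 173 ± 17.5, 372 ± 26.7 and 467 ± 16.2 at 0 d, 2 d and 8 d. TRM82, named for a subunit of a tRNA methylation enzyme in yeast, had 233 ± 37.7, 488 ± 82.5 and 627 ± 53.3.

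Hormone signalling and development had 3 named members. HAT2, an auxin-inducible homeodomain-leucine zipper factor, had 666, 679 and 589 at 0 d, 2404, 2399 and 2141 at 2 d, and 2675, 2512 and 2011 at 8 d. The 2 d and 8 d arrays overlapped, and all stood far above the 0 d arrays. The differences against 0 d were 1.85 (SE 0.13) at 2 d and 1.89 (SE 0.13) at 8 d. HAT2 was the one member on the list of 33 auxin response genes, of which 9 were measured. Of these, 5 were called higher at 2 d and 6 at 8 d, HAT2 included, and 2 were called lower at 8 d. Among all probe sets 9.75% were called higher at 2 d, and at 8 d 25.4% higher and 18.1% lower. SLY2 (SNEEZY), an F-box protein of gibberellin signalling, had 68.3 ± 15.8, 218 ± 42.9 and 240.0 ± 31.2 at 0 d, 2 d and 8 d. SAP (STERILE APETALA), which acts in flower development, had 23.8, 66.2 and 57.7 at 0 d, 119, 158 and 124 at 2 d, and 129, 154 and 163 at 8 d, and its fold is imprecise because of the dim 0 d arrays. Of 14 cytokinin response genes listed 1 was measured, RR16, and it was called lower at both times.

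Cell wall enzymes gave 3 named members. GH9C2 and GH9B8 are endoglucanases of a glycosyl hydrolase family that cleaves glucans of the wall. GH9C2 had 1551, 1423 and 1737 at 0 d, 3780.4, 3154 and 3196 at 2 d, and 4957, 4425 and 2846 at 8 d, the last of these below all its 2 d arrays. GH9B8 had 161, 139 and 172 at 0 d, 336, 382 and 377 at 2 d, and 519, 414 and 341 at 8 d. Of 6 measured genes of that family these 2 were chosen for their rise. Among the others, GH9B13 was called higher at both times (2.02 and 4.08, log2) and GH9C1 lower (-2.07 and -2.63). GH9A3 was called higher at 8 d alone (0.65 and 1.47), and GH9B7 at neither time (-0.23 and -0.92). AT5G64120 (PRX71), a peroxidase, had 657, 748 and 596 at 0 d, 1909, 1359 and 1203 at 2 d, and 1240.5, 1523 and 1006 at 8 d. With a difference of 0.90 (SE 0.19) at 8 d against 0 d it was 1 of the 8 members that fell short of a log2 change of 1 at 8 d.

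**Figure D3:**
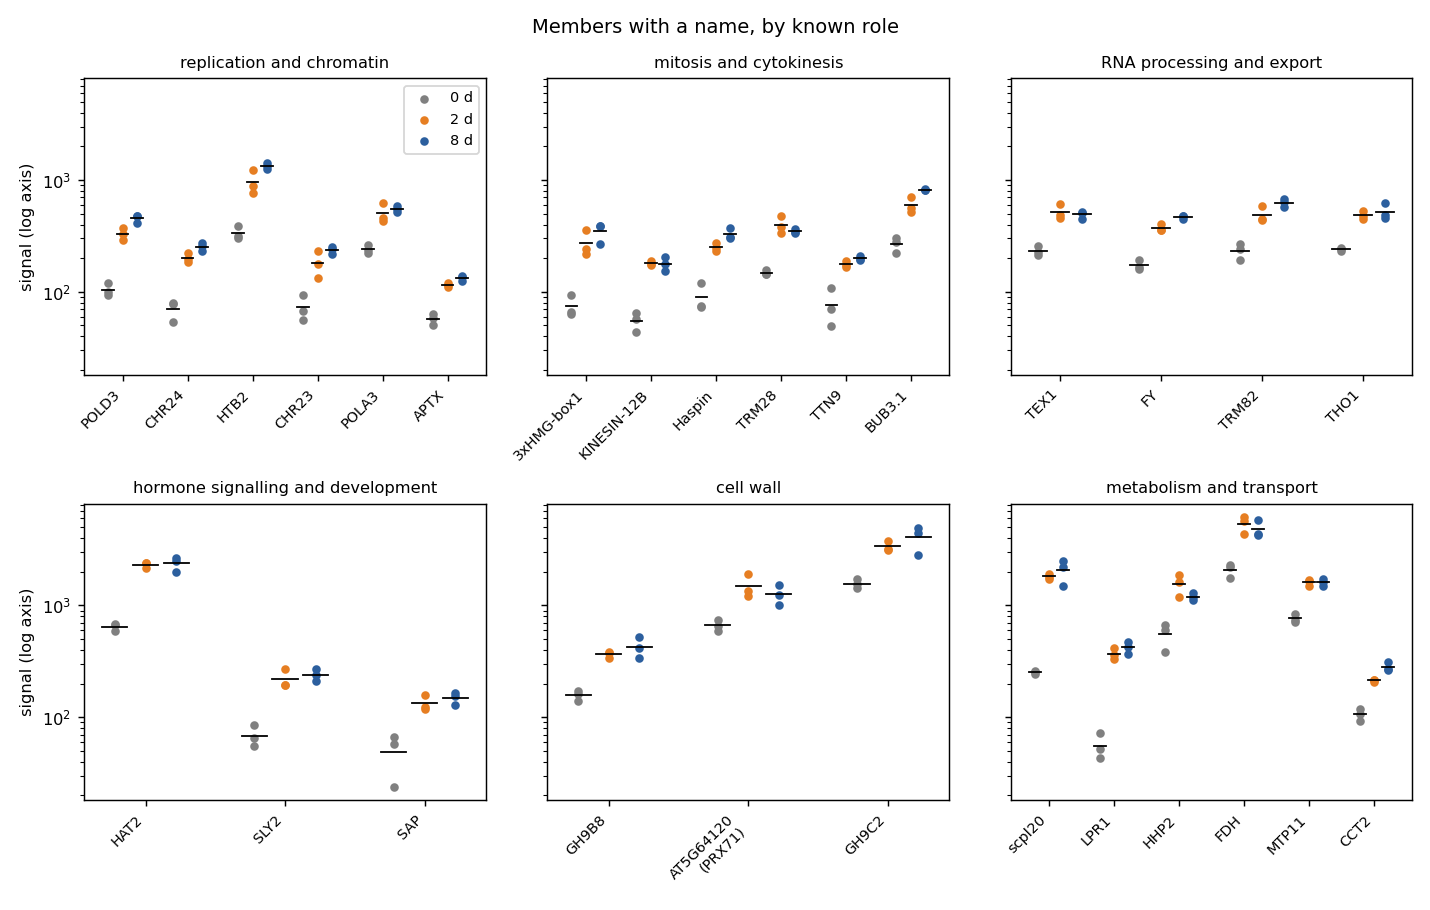
Signals of the 28 named members with a described role, on a log axis, with 3 arrays (points) and their mean (line) at 0 d (grey), 2 d (orange) and 8 d (blue). In every gene the 2 d and 8 d points lie above the 0 d points, from APTX near 115 to FDH near 5402 at 2 d.

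Metabolism and transport held the 2 named members with the largest rises by 2 d. The serine carboxypeptidase-like gene scpl20 had 253, 258 and 245 at 0 d, 1815, 1723 and 1919 at 2 d, and 2502, 2208 and 1504 at 8 d. Its 0 d and 2 d arrays were tightly grouped, whereas those at 8 d spread on both sides of the 2 d level. The differences against 0 d were 2.85 (SE 0.16) at 2 d and 3.01 (SE 0.16) at 8 d. Of 14 measured genes of its family, scpl20 included, 3 were called higher and 1 lower at 2 d. At 8 d 4 were called higher and 4 lower. Among all probe sets 9.75% were called higher and 5.2% lower at 2 d, and 25.4% and 18.1% at 8 d. LPR1, a ferroxidase of the root response to low phosphate, had 71.6, 43.1 and 52.3 at 0 d, 416, 332 and 362 at 2 d, and 365, 475 and 424 at 8 d. It stood 2.76 (SE 0.18) above 0 d at 2 d and 2.94 (SE 0.18) at 8 d, from a dim start that makes the fold imprecise. Its relative LPR2 was at 0.68 and 0.55 at the 2 times and was not called.

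FDH, the mitochondrial formate dehydrogenase, was the brightest named member, with 2278, 2212 and 1774 at 0 d, 6144, 5720.1 and 4343 at 2 d, and 4341, 4277 and 5866 at 8 d. The later arrays overlapped and stayed above every 0 d array. MTP11, a manganese transporter, had 767 ± 67.9, 1612 ± 92.8 and 1608 ± 108 at 0 d, 2 d and 8 d, a difference of -0.0039 (log2) between 8 d and 2 d. CCT2, an enzyme of phosphatidylcholine synthesis, had 106 ± 13.3, 213 ± 4.95 and 282 ± 27.6. HHP2, a heptahelical transmembrane protein, had 552 ± 151, 1565 ± 355 and 1201 ± 94.9, with 1 of the larger declines after 2 d (-0.36, log2). ZCF125, whose role is not described here, had 60.6, 17.9 and 49.8 at 0 d, 266, 213 and 259 at 2 d, and 315, 364 and 245 at 8 d.

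Of the 12 members with the largest rises by 2 d, all but scpl20, LPR1 and ZCF125 had a locus number alone, as did 112 of the 141 member genes. AT2G19970 had 428, 578 and 466 at 0 d, 6957, 8744 and 9336 at 2 d, and 8022, 7401 and 5684 at 8 d. It stood 4.09 (SE 0.17) above 0 d at 2 d and 3.84 (SE 0.17) at 8 d, both the largest differences of any member. AT5G01870, the brightest member, had 1208, 873 and 1574 at 0 d, 9292, 8152 and 10638 at 2 d, and 11921, 12259 and 13711 at 8 d, with no overlap between time points. Below scpl20, LPR1 and ZCF125 came AT4G37295 at 2.45 (SE 0.23), AT1G75640 at 2.18 (SE 0.20), AT4G13710 at 2.11 (SE 0.18), AT1G63100 at 2.07 (SE 0.21) and AT3G20150 at 2.02 (SE 0.31), all for 2 d against 0 d. AT1G79470 and AT2G16270 were both at 1.99 (SE 0.11 and 0.14). Means at 0 d were under 100 for LPR1, ZCF125, AT1G75640, AT1G63100, AT3G20150 and AT2G16270, so their folds are imprecise. Bright members with smaller differences were AT1G04680, at 1228 ± 53.5, 3048 ± 86.9 and 2392 ± 522 at 0 d, 2 d and 8 d, and AT3G56370, at 887 ± 134, 2222 ± 99.1 and 2541 ± 216.

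Ribosome biogenesis supplies a growing cell with ribosomes. AT3G15460, the one member on the list of 36 ribosome biogenesis genes, had 218, 242 and 255 at 0 d, 719, 571 and 619 at 2 d, and 908, 935 and 769 at 8 d. Its 3 time points did not overlap, and it was 1.41 (SE 0.12) above 0 d at 2 d and 1.87 (SE 0.12) at 8 d. Of the 12 genes of that list measured, 7 were called higher at 2 d and 12 at 8 d, this member included. Their medians were 1.11 and 1.84, against 0.21 and 0.47 over all probe sets with 1 nuclear gene. Over all probe sets, 9.75% were called higher at 2 d and 25.4% at 8 d, both against 0 d. YAO, also on that list, met the thresholds and was left out by name. The list was chosen with earlier results of these data known. Of the 8 chaperonin genes listed, 7 were measured, none was called at 2 d by limma and 4 were called higher at 8 d, with medians of 0.57 and 1.04. Of 7 senescence genes listed 2 were measured, and both were called higher at 2 d and at 8 d, with neither a member. No measured glutathione transferase (10), UGT glycosyltransferase (20), cytochrome P450 (7), autophagy gene (9) or xyloglucan endotransglucosylase (6) was a member. Members were 2.60% of all genes measured by probe sets with 1 nuclear gene, so an absence from families this small says little.

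A log2 change under 1 at 8 d against 0 d was found in 8 members, which by the rule's arithmetic must stand lower at 8 d than at 2 d. AT3G13062 was the lowest of them, with 343, 409.9 and 301 at 0 d, 595, 803 and 711 at 2 d, and 445, 508 and 575 at 8 d. It was 1.0007 above 0 d at 2 d, the smallest of all members, and 0.54 at 8 d. AT3G13000 had the largest decline after 2 d that the rule allows, -0.49 (log2), with means of 222 ± 23.4, 602 ± 75.8 and 434 ± 101. AT5G65205 was at 0.86, AT4G09970 at 0.87, AT3G52920 at 0.93, AT1G04680 at 0.94 and AT5G56460 at 0.99.

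The thresholds cut a continuous spread. Just inside a rise of 1 were AT3G13062, AT3G57000 and AT4G15820 (1.001 to 1.003), and just outside were AT4G38100, AT2G15690 and RECQ4A (0.998, 0.998 and 0.997). At the limit of 0.5 between 8 d and 2 d, HTB2, AT3G58660 and AT2G18360 were just inside (0.499, 0.499 and 0.497), and HLL, AT3G49890 and AT1G74010 just outside (0.5003, 0.501 and -0.503). At the limit of 7 on the highest mean, APTX and AT4G23000 (7.05 each) and SAP (7.21) were inside, and AT5G42700 (6.73) was the single probe set outside. Of the 536 probe sets with 1 nuclear gene and a highest mean of at least 7 that rose by at least 1 by 2 d, 149 (27.8%) stayed within 0.5, 280 (52.2%) were at least 0.5 higher at 8 d and 107 (20%) at least 0.5 lower. The mirror of the rule, a fall of at least 1 by 2 d with 8 d within 0.5, gave 113 probe sets.

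Members had longer genes than the table as a whole. The median gene length in the reference (TAIR10.1) was 2947 bases for the 141 member genes (interquartile range 2021 to 4213), against 2364 bases for 5408 genes with a length (1729 to 3277). It was 2677 bases in the early risers that went on higher, 2008 in those that turned lower and 1608 in the lasting falls. By locus number 47 of 141 member genes (33.3%) were on chromosome 5, beside 24.1% of all genes measured by such probe sets, and 14 (9.93%) were on chromosome 2, beside 15%. In 5 pairs, both genes were members and lay within 3 annotated genes of each other, among them GH9C2 with AT1G64405 (1.10 and 1.39 at 2 d) and AT2G18330 with AT2G18360 (1.43 and 1.98). The others were AT1G62760 with AT1G62770 (1.87 and 1.18), AT1G77580 with AT1G77600 (1.498 and 1.14) and AT4G15820 with AT4G15830 (1.003 and 1.32). Of the 143 links from a member to a measured gene within that distance, 6.99% led to another member, while members were 2.60% of the genes measured. These are descriptions and were not tested.

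A second probe set was present for 2 member genes. Both probe sets of AT5G54130 were members and agreed closely, at 1.75 (SE 0.37) and 1.74 (SE 0.28) for 2 d against 0 d. They also shared a spread at 8 d, with 559, 654 and 214 on one and 730, 692 and 300 on the other, so that replicate 3 was low on both. The second probe set of AT5G50740 was at 1.11 at 2 d, against 1.45 on the member probe set, and missed the rule with a further 0.71 (log2) between 2 d and 8 d.

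The members deviated together on single arrays, as did early risers as a whole. Within the 2 d group, the median member deviated from its own time point's mean by 0.082 (log2) in replicate 1, -0.112 in replicate 2 and 0.049 in replicate 3, against 0.0044, -0.0082 and 0.0099 over all probe sets. At 8 d the median member was at -0.0017, 0.093 and -0.062 in replicates 1, 2 and 3, and at 0 d at -0.026, 0.017 and 0.024. Over all 536 early risers the medians were 0.087, -0.114 and 0.024 at 2 d and -0.020, 0.074 and -0.054 at 8 d. In 2 d replicate 2, 35 of 142 members lay above the mean of the 2 d arrays. Without that array 220 probe sets met the rule, 141 of the present members among them, and without 2 d replicate 1 there were 116, with 100 of the members.

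**Figure D4:**
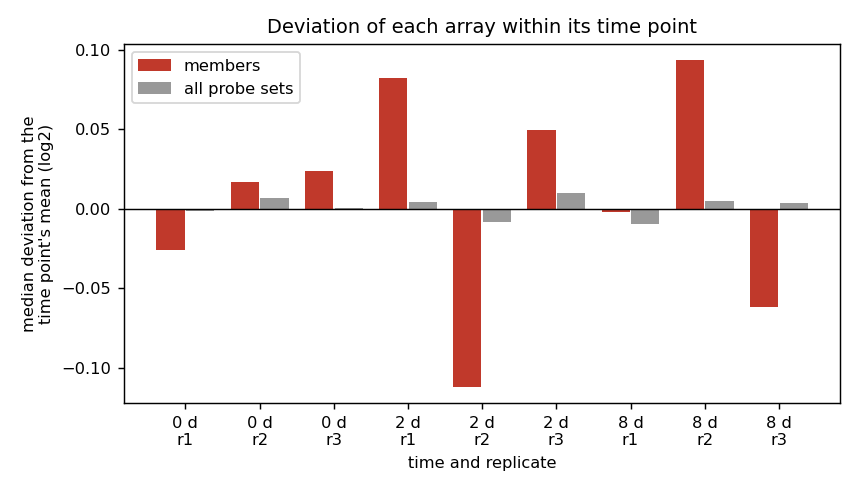
Bars show the median deviation (log2) of the 142 members (red) and of all 10343 probe sets (grey) from the mean of their own time point, for each array (r1 to r3). Members were low in 2 d replicate 2 (-0.112) and high in 8 d replicate 2 (0.093), while all probe sets stayed within 0.01 of 0.

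Replicate 3 at 8 d stood apart for a subset. In 11 members (7.75%) it lay more than 0.5 (log2) below both other 8 d arrays, beside 2.62% of all probe sets with 1 nuclear gene. These 11 included both probe sets of AT5G54130, the neighbours GH9C2 and AT1G64405, scpl20, AT1G04680 and AT4G37295. AT5G22460 had 753, 760 and 344 at 8 d, and AT1G54200 had 576, 454 and 217. For these genes the 8 d mean, and with it the place within the band, rests on arrays that disagree.

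A rule fitted on 2 replicates of each time point can be set beside the replicate it did not use. Chosen on replicates 2 and 3, 121 probe sets met the rule, and in replicate 1 their median difference between 2 d and 0 d was 1.33, with 85 (70.2%) at 1 or more. Chosen on replicates 1 and 3, there were 246, with a median of 1.01 in replicate 2 and 130 (52.8%) at 1 or more. Chosen on replicates 1 and 2, there were 165, with a median of 1.19 in replicate 3 and 111 (67.3%) at 1 or more. Every one of these probe sets was higher at 2 d than at 0 d in the replicate left out. The same shares over all probe sets were not counted, so these values are a description and no test. Between 8 d and 2 d, 71.9%, 32.9% and 60.6% of them lay within 0.5 in replicates 1, 2 and 3. How probe sets entered the table is not stated, and a choice made on all 9 arrays would have used the left-out replicate too.

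**Figure D5:**
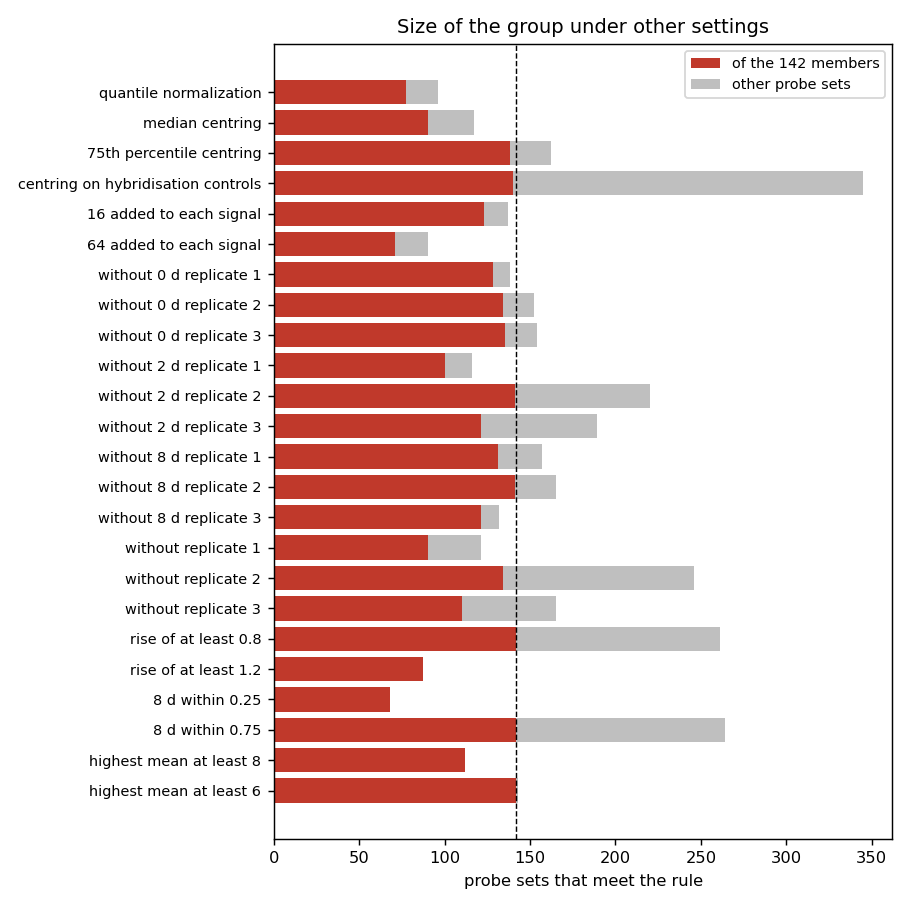
Bars count the probe sets that met the rule under each other setting, with the part shared with the 142 members in red and others in grey; the dashed line is at 142. The count runs from 68 (8 d within 0.25) to 345 (centring on hybridisation controls), which retained 140 of the members.

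How many genes counted as members depended on the scale between arrays. After quantile normalization 96 probe sets met the rule, 77 of them present members, and after median centring 117, of which 90 were. Centring on hybridisation controls gave 345, with 140 of the members. Under all 4 other scalings 73 of the 142 met the rule, and 73 with each of the 9 arrays left out in turn. With 2 offsets added to the signal as further settings, 45 members met the rule under all 15. Among the named ones these were scpl20, LPR1, ZCF125, HAT2, KINESIN-12B, SLY2, Haspin, TRM28 and FDH.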

How the data were processed

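RNA of whole seedlings was hybridised to Affymetrix arrays, 3 at each of 3 time points. The deposited values are signal intensities per probe set on a linear scale, made with MAS5 per the submitters' processing notes. Scaling target, background steps and the choice of probe sets were not given in those notes or labels. The log2 of each signal was taken with a floor of 1, and nothing further was scaled. Control probe sets were left out. A linear model with a mean per time point was fitted to 10343 probe sets over 9 arrays with limma 3.58.1 in R 4.3.3. P-values were adjusted by Benjamini-Hochberg over all of them, and calls required a log2 change of 1 or more with an adjusted p below 0.05. The script was tested on simulated data. Probe sets were named from the platform annotation, and 5503 of 5521 with 1 gene matched the reference gene table.

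The members and gene lists were chosen with earlier results of these data known. Members were named with values if they were among the 12 largest rises, the 8 brightest at 2 d, on a list, named beyond the locus, near a threshold, neighbours, or measured by a second probe set; AT5G22460 and AT1G54200, and the members short of a log2 change of 1 at 8 d, were chosen after their values were seen. Alternatives were other scalings, offsets, filters, priors, thresholds and left-out arrays. P-values rest on the variation among these arrays alone, possibly technical, and the number of arrays limits the precision. Promoter and protein sequences were not used here.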

Additional observations from a re-analysis of the deposited data

How the results depend on the processing

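The number of probe sets that met the rule (142) depended most on scale and threshold. It was 345 after centring on hybridisation controls and 90 with 64 added to each signal. A rise of at least 0.8 gave 261, of at least 1.2 gave 87, a band of 0.25 gave 68 and a band of 0.75 gave 264. Leaving out 1 array, or 1 replicate number throughout, gave 116 to 246, the highest without replicate 2 and 220 without its 2 d array alone. Of the members, 142 were called at 2 d against 0 d, but 83 after quantile normalization, 91 after median centring, 71 with 64 added, 55 with the dimmest 40% of probe sets left out and 41 at a log2 change of 1.5. At 8 d against 0 d these last filters gave 50 and 80 in place of 134. The 8 d against 2 d count of members was 0 under every alternative run. Over all probe sets, the calls at 2 d against 0 d were 1546. They were 1351 after quantile normalization, 1436 after median centring, 965 with 64 added, 703 without the dimmest and 604 at 1.5. At 8 d against 0 d they were 4502, and 2444 and 2213 under those last filters, and at 8 d against 2 d 2285, and 1363 and 985. Fewer probe sets were tested without the dimmest, and for the other changes the cause was not tested. Not every same-numbered pair deviated together: correlations ran from -0.091 to 0.23, and only those of 8 d with 2 d in replicates 1 and 3 (0.23 and 0.17) were over 0.1. The numbers were therefore not taken as pairs. With the replicate block the calls were 1548, 4503 and 2285, and the members called 142, 134 and 0. Of the changes of named members under the alternatives, 1128 kept their call, 68 lost it, 4 gained it and 0 reversed. The median member changed by 1.0005 to 1.51 at 2 d and by 1.195 to 1.62 at 8 d against 0 d over the scalings and offsets.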
